A study of Mus musculus with 9 samples.

Results

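The 456 predicted miRNAs of the small RNA data from embryonic mouse kidney are hairpins that carry no known mouse miRNA name and were named novel_mir followed by a number. All rows of the class miRNA without a mouse miRNA name were taken, which gave 456 of the 4021 names with a count in at least 1 library, beside 1607 known mouse miRNA names. Each of the 456 names stood at the same chromosome, start, end and strand in every library that listed it, and the 456 names had 456 distinct places. The same name therefore meant the same prediction throughout, and counts could be compared by name. The 9 libraries were made from whole kidneys at embryonic day 16.5. They comprised 3 libraries of the genotype DROSHA-E1147K transgene, 3 of the genotype DROSHA knockout and 3 of wild type, called transgene, knockout and control here. The labels give neither the promoter or Cre driver, nor the cells in which DROSHA was altered, nor whether replicates are different animals. P-values therefore rest on the variation among the sequenced libraries, part or all of which can be technical.

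In the nucleus the RNase III enzyme Drosha cuts the hairpin of a miRNA out of its primary transcript, and Dicer then cuts off the loop. Some hairpins are known to bypass Drosha. Mirtrons are freed by splicing, because the hairpin is a short intron, and some hairpins at the very start of a transcript are exported with their cap and go straight to Dicer, as miR-320 does in mouse. Prediction programs call an unknown miRNA where short reads stack on a sequence that can fold, so fragments of small nucleolar RNAs, ribosomal RNA or other abundant transcripts can also receive such a name. The residue changed in E1147K lies in an RNase III domain of DROSHA that is recurrently mutated in Wilms tumours, and the mutation is known to impair cleavage by the enzyme.

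A small group of the predictions has since entered RefSeq as miRNAs, and their mature sequences show what the reads would be as miRNAs. In 3 of 6 cases with a RefSeq hairpin on the same strand, the RefSeq end was the same and its start was 1 higher than the deposited start, so the deposited start reads as counted from 0. Coordinates given before or after a printed sequence have the start counted from 1. All other coordinates below are those of the files (mm10). The 5 predictions novel_mir369, novel_mir66, novel_mir501, novel_mir533 and novel_mir169 are the RefSeq hairpins of the matures below (RefSeq, GRCm38), all on the minus strand, with the seed (bases 2 to 8) in capitals.
mmu-miR-203b-5p: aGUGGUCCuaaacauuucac
mmu-miR-203b-3p: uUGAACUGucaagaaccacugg
mmu-miR-12194-3p: uCUGUGGGucuguuuguccguc
mmu-miR-12189-3p: aUGGCCUGuacucucacacu
mmu-miR-12182-5p: aCAGCGCCagcugccuaauuga
mmu-miR-12182-3p: uAAUUAGGcucuggaucuguga
mmu-miR-12197-3p: gCGGGGCUggggacaucg
No 2 of these 7 matures share a seed. The miR-203b matures lie at chr12:112130927-112130946 and chr12:112130887-112130908, on the strand opposite Mir203. The others lie, in the order printed, at chr3:55887284-55887305, chr17:80194913-80194932, chr11:86852636-86852657, chr11:86852604-86852625 and chr5:21673874-21673891.

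Other abundant predictions sat on, beside or opposite known small RNAs, and the sequences below show how. The prediction novel_mir64 (chr6:30165924-30165988, plus strand) is the reverse complement of most of the Mir182 hairpin. The capitals mark the bases opposite miR-182-5p.
novel_mir64: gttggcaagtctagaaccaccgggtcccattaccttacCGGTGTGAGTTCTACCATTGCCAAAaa
The prediction novel_mir62 ended where miR-331-5p begins, with 0 bases between them and 25 bases inside the RefSeq Mir331 hairpin. Its last 25 bases and the first 5 of miR-331-5p (in capitals) are those of chr10:93963834-93963863, minus strand.
novel_mir62 end and miR-331-5p start: gagucugguuuuguuuggguuuguuCUAGG
The prediction novel_mir545 (chr1:161035401-161035471, plus strand, GENCODE vM21) covers the snoRNA Gm26224 in Gas5, a host gene of box C/D snoRNAs. The capitals mark TGATGA and CTGA, the letters of C and D boxes, searched on the predicted strand and without overlap here.
novel_mir545: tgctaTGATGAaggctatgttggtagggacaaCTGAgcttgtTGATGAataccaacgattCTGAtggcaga
Both motifs were present in 3 of the 280 predictions with a sequence (1.07%). The prediction novel_mir459 (chr2:32963349-32963420, plus strand) is the end of Snora65, a box H/ACA snoRNA in Rpl12, with ACA in capitals 3 bases before its end.
novel_mir459: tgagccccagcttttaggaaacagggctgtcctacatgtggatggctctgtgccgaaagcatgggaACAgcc
ACA stood at that place in 4 of the 280 sequences (1.43%).
The prediction novel_mir315 (chr2:105126410-105126467, minus strand) lies in the first exon of Wt1os, the antisense RNA of the kidney transcription factor and Wilms tumour gene Wt1. Between its 5′ end and the Wt1 start lie 61 bases, and CG pairs are in capitals.
novel_mir315: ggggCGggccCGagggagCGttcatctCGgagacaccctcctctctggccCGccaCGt

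The hairpins clustered at transcript starts, and few lay in miRNA genes. Against GENCODE vM21, 134 of the 456 (29.4%) began within 20 bases of a transcript start on the same strand and in no small RNA, 117 (25.7%) lay in other exons, 77 (16.9%) in no gene, 57 (12.5%) inside introns and 40 (8.77%) opposite a gene. A further 11 lay in a miRNA gene, 11 within 5 bases of a splice site in an intron, 7 in a snoRNA or ribosomal RNA and 2 opposite a miRNA gene. Counting every class, 135 predictions (29.6%) had their 5′ end within 20 bases of a transcript start, against 23 of 1005 RefSeq miRNA hairpins (2.29%). With RefSeq gene starts in place of GENCODE transcripts the shares were 11.4% of the predictions and 0.896% of the RefSeq hairpins. The median GC content was 69.2% for the 117 of 134 start predictions with a sequence, 68.5% for 105 of 117 exon predictions, and 51.8% for 963 RefSeq hairpins.

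**Figure D1:**
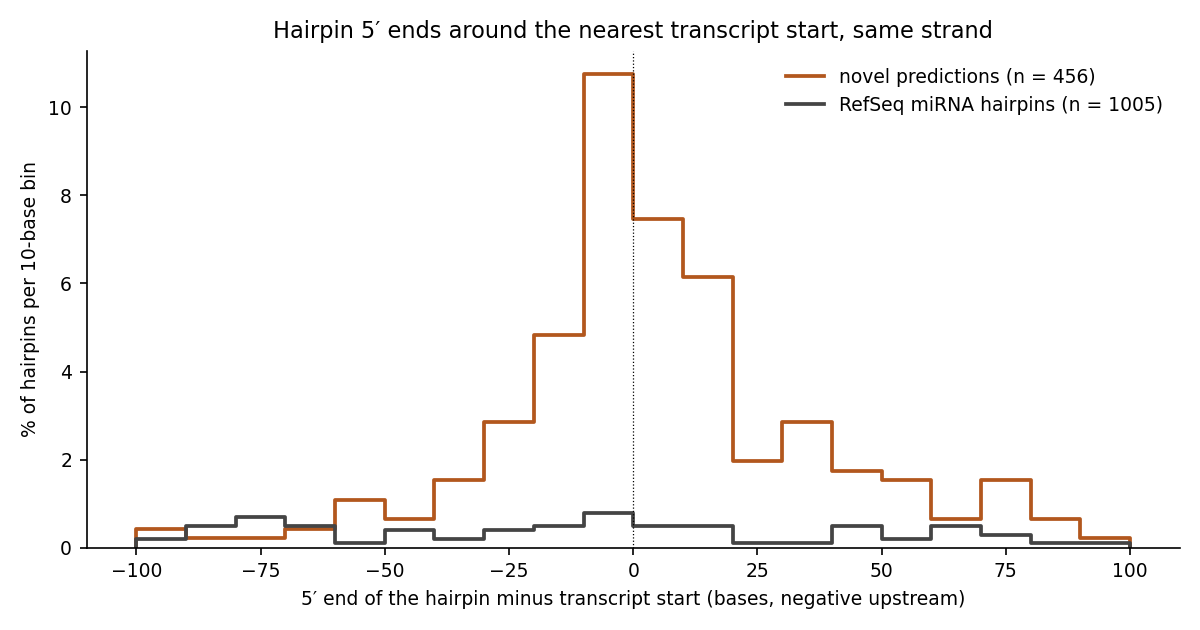
Position of the hairpin 5′ end relative to the nearest transcript start on the same strand, in bases, as the percentage of all hairpins in each 10-base bin. The 456 predictions peak around the start, whereas the 1005 RefSeq miRNA hairpins stay low throughout the window.

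The predictions were scarce. They held 132069 reads in all, and a library listed none below 10 reads, whereas known miRNAs were listed from 1 read, so a name not listed had 0 to 9 reads. Only 53 names were listed in all 9 libraries, and these held 83.0% of the reads, while 125 names were listed in 1 library alone. The median name had 36 reads summed over the 9 libraries. The most abundant, novel_mir176, took 21.3% of all reads of predictions, and the top 10 names took 63.0%. Across the 36 pairs of libraries, Spearman's rho of the counts over shared names had a median of 0.738, and known miRNAs in the same abundance range had a median of 0.915. These are descriptions over names within libraries, which share the protocol and differ in depth.

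In units of 1e6 reads, the counted total was 32.7 to 38.6 in transgene, 31.7 to 35.6 in knockout and 33.6 to 42.6 in control libraries. The 7 kidney marker miRNAs summed to 70412 to 115999 CPM (reads scaled by the library's known and predicted miRNA reads and by TMM) in transgene, 41538 to 89317 CPM in knockout and 113212 to 141332 CPM in control libraries. The 5 erythroid markers summed to 27982 to 81368 CPM in transgene, 73025 to 110612 CPM in knockout and 21010 to 51294 CPM in control libraries. All markers of both lists were detected. The 6 striated muscle markers summed to 478 to 1660 CPM in transgene, 481 to 10235 CPM in knockout and 216 to 1219 CPM in control libraries, and the 5 endocrine and liver markers to 4984 to 22021, 1126 to 10885 and 1149 to 11947 CPM in transgene, knockout and control, so both overlapped control. In the knockout libraries kidney markers lay below, and erythroid markers above, every control library, and the part of all these markers in the results below was not tested. In bulk kidney, fewer cells of a type and less RNA per cell cannot be told apart. Drosha mRNA is not measured by small RNA sequencing, so the genotypes could not be checked in these counts.

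The first comparison asked how many predictions each genotype yielded. The transgene libraries listed 266, 184 and 154 names, the knockout libraries 162, 138 and 84 names, and the control libraries 302, 173 and 194 names. Every knockout library was below every control library, but not with a minimum of 20 reads, and the means were 128.0 ± 39.9 names in knockout and 223.0 ± 69.2 names in control (SD, n = 3 each). The exact two-sided permutation test gave p = 0.1, the smallest p that 3 against 3 allows, and 0.3 after adjustment over the 3 comparisons. The difference of -95.0 names was -55.5 without control library 1, the library with the most names and the most reads. With every library thinned to the depth of the smallest, 119 names in knockout and 179 in control were expected to reach 10 reads, and the difference was -59.9 names. With a minimum of 20 reads, knockout libraries had 82, 68 and 41 names and control libraries 124, 70 and 84, which overlapped, and the difference was -29.0 names. Transgene libraries averaged 201 ± 58.0 names and differed from control by -21.7 names (exact permutation p = 0.6), but by 2.0 without transgene library 3 and by 17.8 without control library 1. Knockout and transgene differed by -73.3 names (exact permutation p = 0.2), and by -41.0 without transgene library 1.

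The share of reads in predictions did not follow the number of names. It was 0.0600%, 0.0514% and 0.0343% of all counted reads in transgene, 0.0401%, 0.0371% and 0.0398% in knockout, and 0.0352%, 0.0295% and 0.0380% in control libraries. The groups overlapped on this denominator, with means of 0.0485 ± 0.0131%, 0.0390 ± 0.00163% and 0.0342 ± 0.00431% in transgene, knockout and control (SD, n = 3 each). Exact two-sided permutation tests gave p = 0.3 for transgene against control, p = 0.2 for knockout against control and p = 0.4 for knockout against transgene, and 0.4 for each after adjustment. As a share of known and predicted miRNA reads, every knockout library (0.0484% to 0.0537%) lay above every control library (0.0365% to 0.0464%), with an exact permutation p of 0.1 and an adjusted p of 0.3. Without novel_mir176, predictions averaged 0.0291% of all counted reads in knockout and 0.0310% in control libraries. On all counted reads the difference between knockout and control thus turned to -0.00191 percentage points. The share of known and predicted miRNA reads was not computed without novel_mir176. Since every knockout library had more reads of novel_mir176 than every control library, the separation on that denominator cannot be said to hold without this name.

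**Figure D2:**
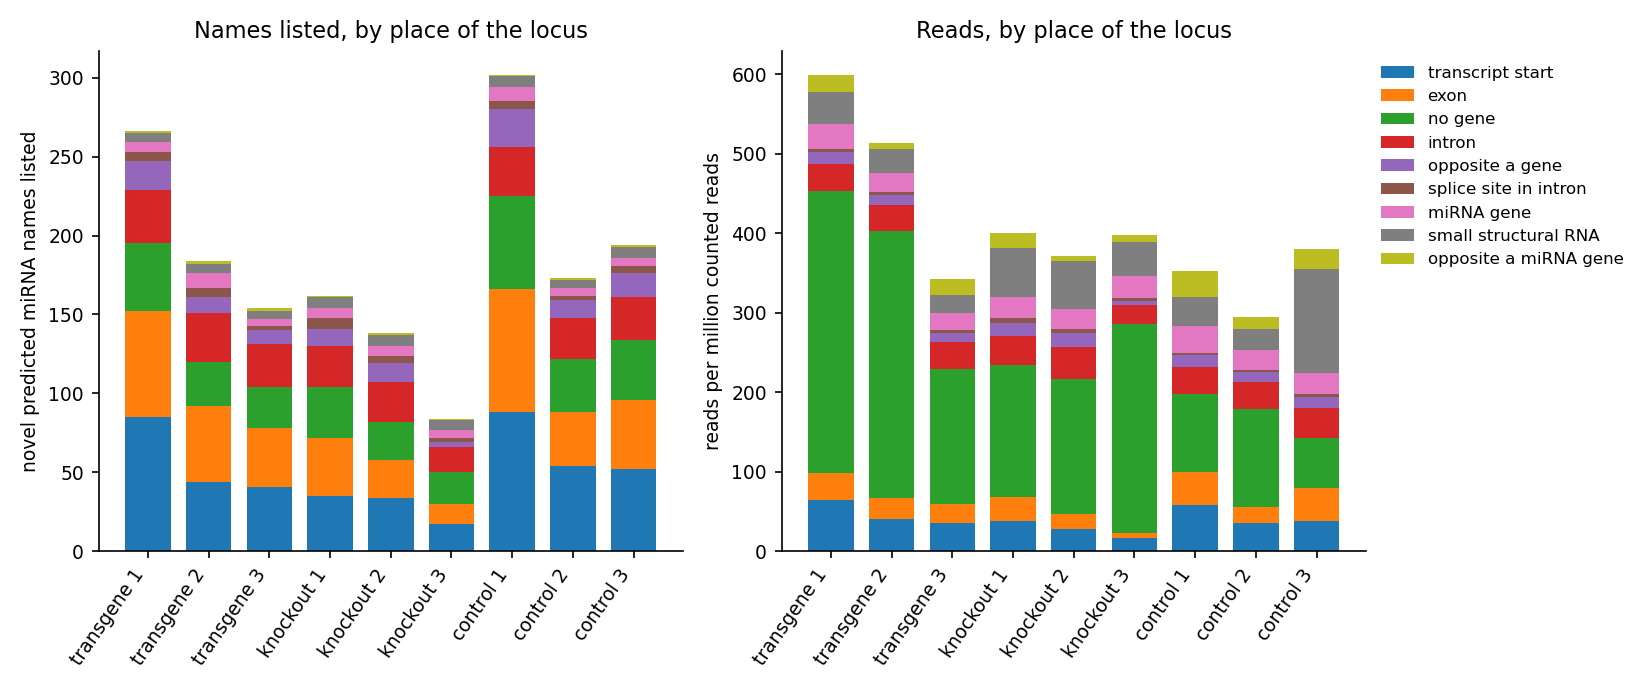
Predicted miRNA names listed (left) and their RPM (right) in each library, stacked by the place of the locus. Names at transcript starts are fewest in the knockout libraries, with 17 to 35 names, but as a share of names listed knockout and transgene overlap. Loci in no gene hold the most reads in every library except control library 3.

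By place, the knockout libraries listed fewer predictions at transcript starts than every other library. Transgene libraries listed 85, 44 and 41 of the 134, knockout libraries 35, 34 and 17, and control libraries 88, 54 and 52. As a share of names listed, these were 32.0%, 23.9% and 26.6% in transgene and 21.6%, 24.6% and 20.2% in knockout libraries. In control libraries they were 29.1%, 31.2% and 26.8%, so by share knockout lay below control but overlapped transgene. Exon predictions numbered 37, 24 and 13 in knockout, 67, 48 and 37 in transgene and 78, 34 and 44 in control libraries. The predictions at transcript starts held 35.6 to 64.8 RPM (reads scaled by all counted reads of the library) in transgene, 17.2 to 38.2 in knockout and 35.0 to 57.9 in control libraries, which overlapped. Loci in no gene held 169 to 354 RPM in transgene and 166 to 263 in knockout, against 62.8 to 123 in control libraries, so both altered groups lay above control. The 3 names novel_mir176, novel_mir120 and novel_mir112 carried this. The other 74 loci in no gene held 31.4 to 36.5 RPM in transgene, 24.1 to 42.7 in knockout and 26.5 to 38.7 in control libraries, which overlapped. The 11 splice-site hairpins, the place where a mirtron would lie, held 3.06 to 4.45 RPM in transgene, 3.04 to 5.87 in knockout and 2.84 to 2.89 in control libraries. No test was made for these classes.

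In the edgeR quasi-likelihood fit of 1148 names (955 known miRNAs and 193 of the 456 predictions; 263 had too few reads), 0 predictions passed an adjusted p of 0.05 in any of the 3 comparisons. The same held for all names tested (0.0% called in each comparison). At an unadjusted p under 0.05, 8 predictions were higher and 12 lower in transgene against control, where 5.49% and 2.7% of all names were higher and lower. In knockout against control 9 were higher and 38 lower (14.3% and 8.97% of all names), and in knockout against transgene 5 were higher and 16 lower (2.96% and 4.09%). A prediction that passed the read filter through 1 group alone had to differ. With every unlisted count set to 9 reads, 13 predictions were higher and 32 lower in knockout against control at the same unadjusted threshold. Of the 955 known miRNAs, 170 were higher and 66 lower there. In knockout against transgene 9 predictions were higher and 8 lower, beside 36 and 34 known miRNAs. In transgene against control 7 predictions were higher and 17 lower, beside 63 and 18 known miRNAs. DESeq2 called 3 predictions in transgene against control, all higher. In knockout against control it called 22, 5 higher and 17 lower, and in knockout against transgene 5, all lower. Of all names tested it called 1.48%, 12.6% and 1.57%, and of the 955 known miRNAs 14, 123 and 13. DESeq2 took unlisted counts as 0 and was not run with 9 reads, so a prediction missing from a whole group had to differ. Without knockout library 1, edgeR called 9 predictions in knockout against control, 2 higher and 7 lower, and 5.14% of all names tested. The 50 known miRNAs among them were 46 higher and 4 lower. The predictions called included novel_mir299, novel_mir519 and novel_mir454 (adjusted p of 0.0484 in edgeR) and novel_mir459 and novel_mir315 (adjusted p of 0.0495). The first 3 were unlisted in every library of 1 group and entered as 0 there, which sets the size of their fold changes (7.27, -7.48 and -8.23 on the log2 scale).

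Among the 53 names listed in all libraries, the values sat near no change. Transgene and control did not overlap for 9 names higher and 3 lower in transgene (13.1% and 9.15% of all names tested), and knockout and control for 6 higher and 5 lower in knockout (13.6% and 13.7% of all). For knockout against transgene, 2 were higher and 0 lower (4.44% and 5.92% of all). The median log2 fold change of the 53 was -0.05 for transgene against control, -0.10 for knockout against control and -0.12 for knockout against transgene, beside 0.04 for the 955 known miRNAs in each comparison. A name that fell below 10 reads anywhere is outside these 53. Both altered groups are set against the same control libraries.

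**Figure D3:**
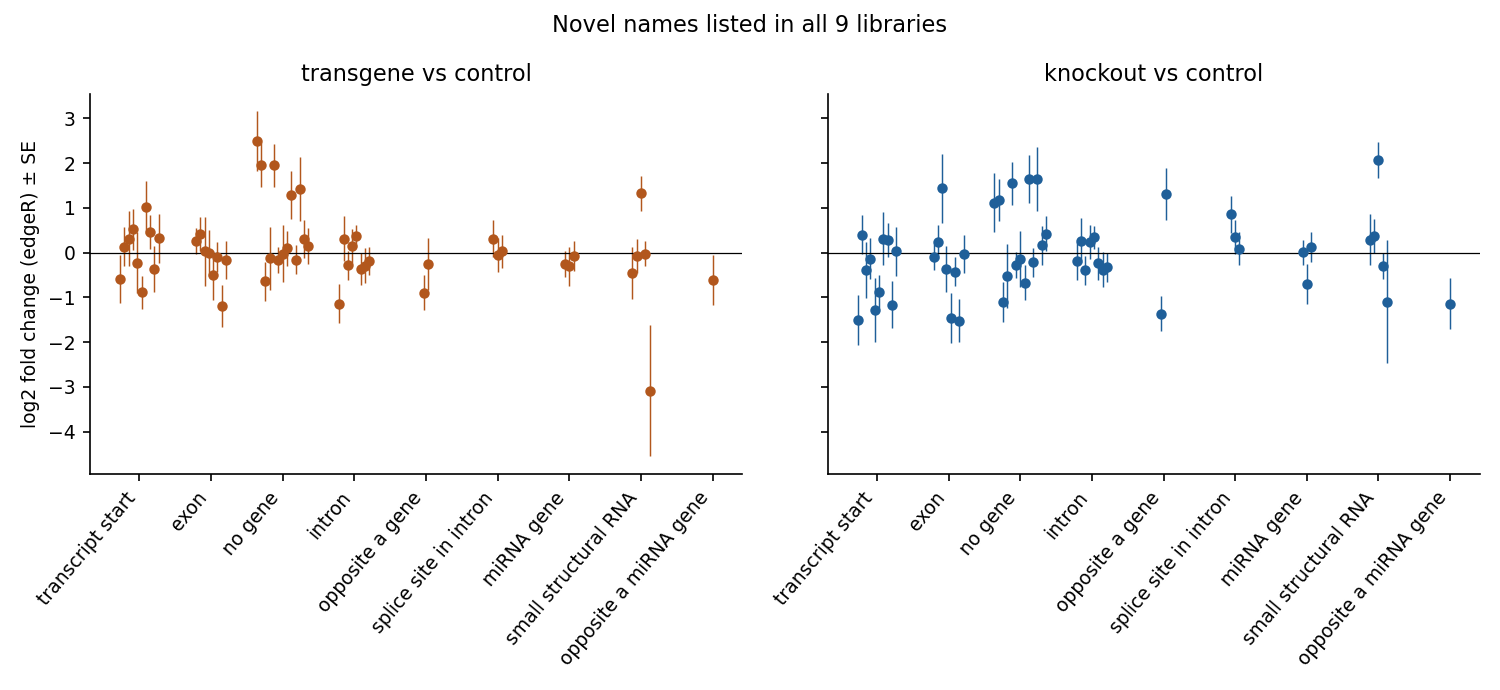
Log2 fold change (edgeR, bars ± SE) of the 53 names listed in all 9 libraries, by place of the locus, for transgene against control (left) and knockout against control (right). Most points lie near 0, the loci in no gene reach 2.49 in transgene, and novel_mir459 stands at 2.08 among small structural RNAs in knockout.

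The 2 most abundant predictions, and novel_mir112 among the top 10, lay in no gene and were higher in every transgene and knockout library than in any control library. The prediction novel_mir176 (chr3:69922180-69922219, minus strand) had 6047, 5798 and 2583 reads in transgene, 2693, 2316 and 5183 in knockout and 1211, 1646 and 708 in control libraries. Every transgene and knockout library was above every control library. Its means were 165 ± 67.1 CPM in transgene, 125 ± 50.3 CPM in knockout and 42.6 ± 20.5 CPM in control (SD, n = 3 each). The log2 fold change was 1.95 ± 0.49 (SE) for transgene against control and 1.55 ± 0.48 for knockout against control, with edgeR adjusted p of 0.36 and 0.122.

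The prediction novel_mir120 (chrX:5753568-5753618, minus strand) had 4443, 4815 and 1654 reads in transgene, 1410, 1599 and 2790 in knockout and 1218, 995 and 508 in control libraries. It too was above every control library in both groups. Its log2 fold change was 1.97 ± 0.49 (SE) for transgene and 1.18 ± 0.48 for knockout against control, with edgeR adjusted p of 0.36 and 0.188. The prediction novel_mir112 (chr10:7365329-7365395, minus strand) had 1794, 702 and 272 reads in transgene, 300, 365 and 330 in knockout and 212, 191 and 89 in control libraries. Transgene library 1 was far above the rest, and neither altered group overlapped control. DESeq2 called all 3 of these in transgene against control, while edgeR did not.

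Predictions on snoRNAs and ribosomal RNA differed from each other. The Snora65 fragment novel_mir459 had 123, 73 and 66 reads in transgene, 153, 161 and 90 in knockout and 35, 28 and 40 in control libraries. Both altered groups were above control, by log2 fold changes of 1.33 ± 0.40 (SE) for transgene and 2.08 ± 0.40 for knockout, with edgeR adjusted p of 0.468 and 0.116. The Snord104 prediction novel_mir1 (chr11:106500990-106501065, plus strand) had 916, 538 and 167 reads in transgene, 638, 1027 and 815 in knockout and 929, 448 and 860 in control libraries, and the groups overlapped. The Gm26224 prediction novel_mir545 ranged from 226 to 350 reads in transgene, 218 to 242 in knockout and 224 to 343 in control libraries. A ribosomal RNA fragment, novel_mir82 (chr17:39847047-39847099, minus strand), had 3455 reads in control library 3 and 30 to 1065 in the other 8. Its log2 fold change was -3.08 ± 1.47 (SE) for transgene against control and 0.70 without control library 3, and -1.10 ± 1.37 for knockout and 2.70 without that library.

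Predictions tied to known miRNA hairpins had overlapping groups. The Mir182 antisense prediction novel_mir64 had 842, 265 and 667 reads in transgene, 693, 201 and 309 in knockout and 1396, 530 and 872 in control libraries. The miR-331 neighbour novel_mir62 had 720, 396 and 384 reads in transgene, 372, 453 and 216 in knockout and 935, 519 and 427 in control libraries. Groups overlapped for both predictions. The miR-203b hairpin novel_mir369 had 283, 293 and 266 reads in transgene, 445, 204 and 306 in knockout and 337, 241 and 405 in control libraries, with log2 fold changes of -0.25 ± 0.28 (SE) for transgene and 0.01 ± 0.28 for knockout against control. The miR-12194 hairpin novel_mir66 was listed everywhere, with 47 to 80 reads in transgene, 45 to 82 in knockout and 55 to 71 in control libraries.

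The prediction novel_mir404, in an intron of the kinesin light chain gene Klc1 (chr12:111790076-111790156, plus strand), had 462, 507 and 440 reads in transgene, 429, 467 and 361 in knockout and 455, 341 and 277 in control libraries. By scaled CPM every transgene library lay above every control library, with a log2 fold change of 0.37 ± 0.25 (SE) and an edgeR adjusted p of 0.713, and knockout and control overlapped.

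**Figure D4:**
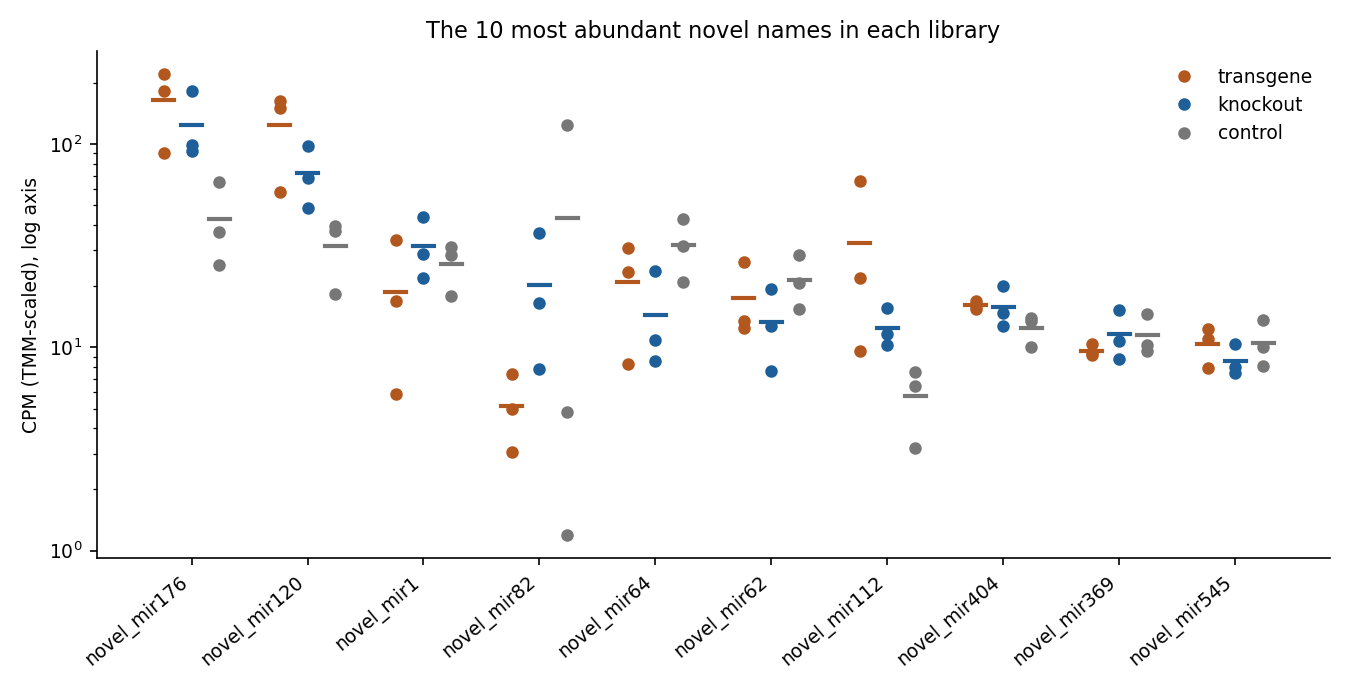
TMM-scaled CPM (log axis) of the 10 most abundant predictions in each transgene, knockout and control library, with the group mean as a bar. For novel_mir176, novel_mir120 and novel_mir112 every control library lies below every transgene and knockout library, and for novel_mir82 the control group spreads widest because of control library 3.

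The Wt1os prediction novel_mir315, described for its place beside Wt1 after its values were seen, had 80, 51 and 73 reads in transgene, 65, 24 and 11 in knockout and 94, 86 and 106 in control libraries. Every knockout library was below every control library, with 1.22 ± 0.94 CPM in knockout and 3.37 ± 0.48 CPM in control (SD, n = 3 each). The log2 fold change was -1.47 ± 0.56 (SE) with an edgeR adjusted p of 0.177. It was -2.25 with an edgeR adjusted p of 0.0495 without knockout library 1, the knockout library with the most reads of novel_mir315. No other run called novel_mir315, DESeq2 included. For comparison, the list of 8 miRNAs known to be made without Drosha had 7 tested members. In knockout against control, 5 of these were higher and 2 lower, with a median log2 fold change of 0.41, and 1 had an unadjusted p under 0.05 in edgeR in the higher direction, where 14.3% of all names tested did.

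Some predictions were read in every library of 1 group and listed in none of another. The transcript-start prediction novel_mir299, at the zinc finger gene Zfp583 (chr7:6331182-6331236, minus strand), had 18, 11 and 12 reads in transgene and 18, 17 and 18 in knockout libraries and was not listed in control. With 9 reads allowed in each control library it was at least 1.49-fold higher in transgene and at least 2.07-fold higher in knockout, and edgeR, taking unlisted as 0, gave adjusted p of 0.155 and 0.0653. It was the only name of this kind higher in knockout against control, against 27 that were lower. Counting known miRNAs by the same rule of 10 reads, 0.52% of all 1539 names were higher and 1.95% lower in this way, and of 1083 known miRNAs 7 were higher and 3 lower. Knockout libraries listed fewer predictions in all. The 27 were novel_mir43, novel_mir65, novel_mir67, novel_mir107, novel_mir133, novel_mir145, novel_mir172, novel_mir189, novel_mir210, novel_mir269, novel_mir275, novel_mir278, novel_mir328, novel_mir367, novel_mir371, novel_mir434, novel_mir436, novel_mir449, novel_mir454, novel_mir478, novel_mir489, novel_mir504, novel_mir519, novel_mir534, novel_mir543, novel_mir550 and novel_mir558. Of the 27, 10 lie at transcript starts, where 134 of all 456 predictions (29.4%) lie. The 27 had 10 to 67 reads in control libraries and were at least 1.18-fold to 3.93-fold lower in knockout.

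The 2 of these that also ranked among the smallest p in both knockout comparisons were listed in all transgene libraries. At the Adi1 start, novel_mir519 (chr12:28675481-28675534, plus strand) had 21, 12 and 10 reads in transgene and 27, 15 and 26 in control libraries and was not listed in knockout. In an exon of Appbp2, novel_mir454 (chr11:85234983-85235060, minus strand) had 24, 12 and 10 reads in transgene and 67, 14 and 38 in control libraries and was not listed in knockout. In knockout against control they were at least 2.33-fold and 3.93-fold lower, with edgeR adjusted p of 0.0653 and 0.0935.

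In transgene against control, 3 predictions were listed in every transgene and no control library, and 10 the other way round (0.585% and 0.715% of all 1539 names). The 3 were novel_mir299, novel_mir206 in a Pank3 exon and novel_mir386 in a Clec11a exon, with 10 to 18 reads. The 10 were novel_mir65, novel_mir133, novel_mir172, novel_mir275, novel_mir367, novel_mir371, novel_mir434, novel_mir436, novel_mir441 and novel_mir534, with 10 to 38 reads in control libraries. Among them, novel_mir65 (chrX:100739048-100739088, plus strand, opposite Gm14866) and novel_mir534 (chr17:29347986-29348029, plus strand, in no gene) had the smallest p. All but novel_mir441 of the 10 were also unlisted in every knockout library. The first had 19, 18 and 18 reads and the second 14, 15 and 17 reads in control. With 9 reads allowed, novel_mir65 was at least 2.09-fold lower in transgene and 1.92-fold lower in knockout. Adjusted p in edgeR, taking unlisted as 0, was 0.36 in transgene and 0.116 in knockout against control for both names. Both passed the read filter through the control libraries alone, so the direction of these tests was set in advance. Between knockout and transgene, 6 predictions were listed in every transgene and no knockout library and 0 the reverse (0.585% and 0.13% of all 1539 names). Besides novel_mir519 and novel_mir454 these were novel_mir80, novel_mir303 at the Net1 start, novel_mir42 at the Nsf start and novel_mir12 in an Nphp4 intron. The last 3 had an edgeR adjusted p of 0.574 each, with unlisted taken as 0.

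**Figure D5:**
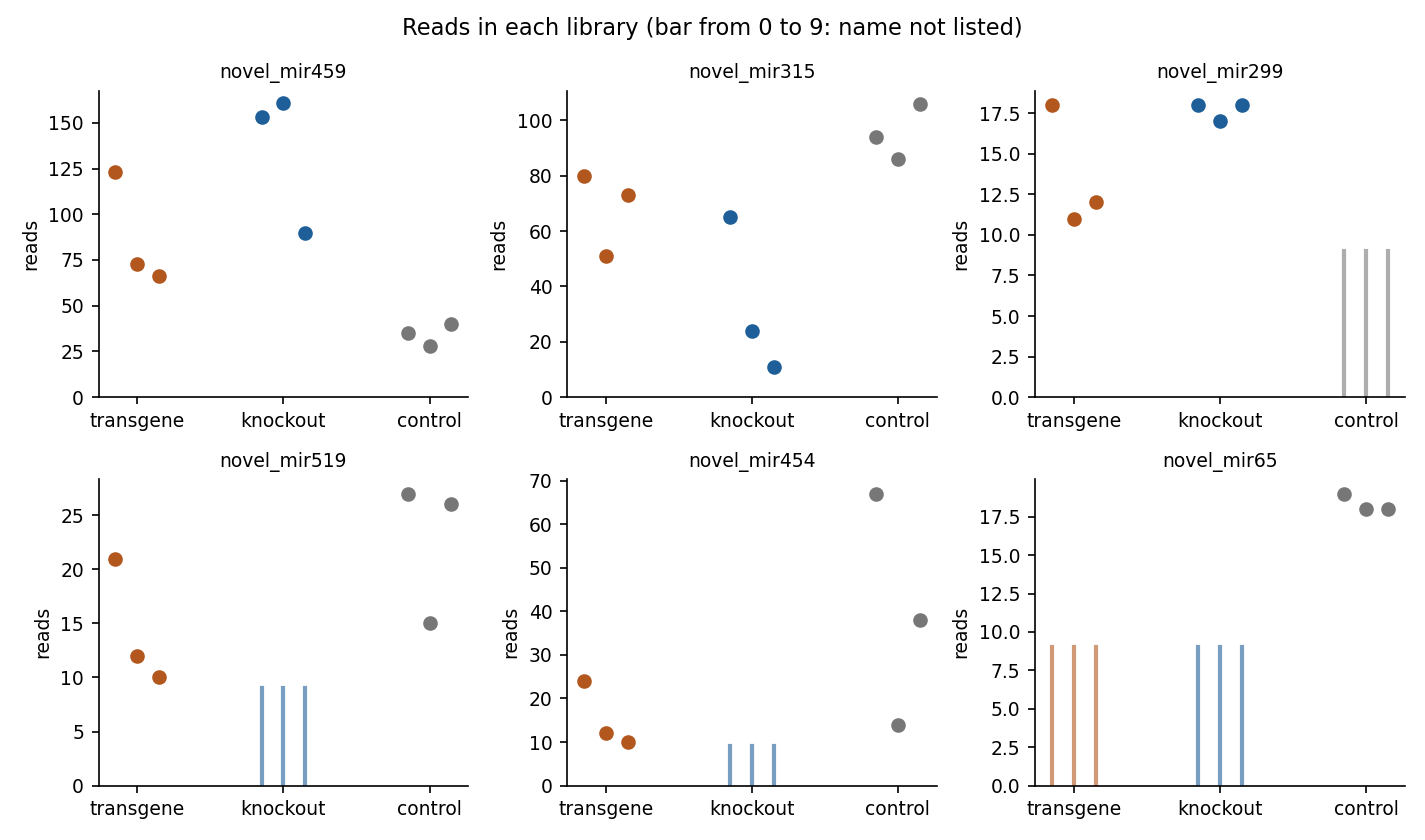
Reads of 6 predictions in each transgene, knockout and control library; a bar from 0 to 9 reads stands for a library that did not list the name. The 2 upper left panels show novel_mir459, higher in both altered groups, and novel_mir315, lowest in knockout, and the other 4 show names missing from a whole group.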

How the data were processed

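Small RNA was sequenced from 9 whole-kidney libraries, with RNA extracted by Trizol and libraries made by the BGI protocol, per the labels' protocols. The authors deposited whole-number read counts per small RNA name. CASAVA 1.8, Bowtie2 and mm10 are named in the submitters' processing notes; the prediction program and its rules are not given in the sources used here. Every deposited count of a prediction was at least 10. Unlisted names entered the fit as 0.

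Loci were compared with GENCODE vM21 and RefSeq (GRCm38). The sequence came from transcripts, promoters or hairpins, since no genome was used here. Hairpins were folded with RNAfold 2.7.2. Counts of known and predicted miRNAs were fitted together in edgeR 4.0.16 (R 4.3.3; TMM, filterByExpr, 3 groups over 9 libraries, Benjamini-Hochberg threshold 0.05), after a check on simulated data. Shares and name numbers used exact permutation tests (SciPy 1.17.1). DESeq2 1.42.0 was an alternative. Named were the 10 most abundant predictions, the 5 with the smallest p per comparison (none passed), and those listed in every library of 1 group and none of another; novel_mir315 and predictions tied to RefSeq miRNAs were added for their place. Members and lists were chosen with earlier results of these data known. Intervals for read counts are not given, since reads carry no molecular identifiers.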

Additional observations from a re-analysis of the deposited data

How the results depend on the processing

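The number of names lower in knockout than in control kept its direction in every alternative run, from -120.0 to -55.5 names when 1 library was left out, and -29.0 with a minimum of 20 reads. Transgene against control ranged from -54.0 to 17.8 names and turned round without transgene library 3 or control library 1. The difference between knockout and control in the share of all counted reads turned to -0.00191 percentage points without novel_mir176. Calls in edgeR stayed at 0 except in DESeq2 (3 in transgene against control, 22 in knockout against control, 5 in knockout against transgene, beside 14, 123 and 13 of 955 known miRNAs), with all counted reads as library size and no factors (2 in knockout against control), and when 1 library was left out (0 to 9 in knockout against control, 9 without knockout library 1, beside 50 known miRNAs). In transgene against control DESeq2 gave no adjusted p for 169 of the 193 predictions. The replicate block left 0 calls, and edgeR with 9 reads for unlisted names called 0 predictions. Every run that called a prediction took unlisted names as 0. Own-number correlations ran from -0.267 to 0.0657. They exceeded those with other numbers only for number 2 in knockout against control (0.0438 against 0.0019). With 3 libraries per group, these correlations cannot tell whether equal numbers share a batch.

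Among log2 fold changes, novel_mir82 reversed without control library 3 (0.70 in transgene, 2.70 in knockout; ranges -3.72 to 0.70 and -1.83 to 2.70) and was 0.81 in knockout under the replicate block. For novel_mir545 in transgene against control, values were 0.12 without factors, 0.053 on all counted reads, and -0.27 to 0.14 when 1 library was left out. For novel_mir1 in knockout the range was -0.056 to 0.50. For novel_mir369 in knockout against control, values were -0.038 with RLE, -0.046 with TMM from known miRNAs, -0.019 with only the 2 groups, -0.0025 with the replicate block, -0.037 in DESeq2, and -0.24 to 0.17 when 1 library was left out. Alternatives with 9 reads for unlisted names, 20 reads, thinning and other start windows were chosen after seeing the data. Depth limits what a name under 10 reads can show; the cause of these differences was not tested.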
